A study of Homo sapiens with 10 samples.

Results

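The rows described here are the unusual entries of a tRNA reference: predicted tRNA loci in the nuclear genome that resemble mitochondrial tRNAs, suppressor tRNAs, and tRNA-like loci whose amino acid could not be assigned. They were chosen by name alone, as every row of the deposited tRNA tables whose name carries an nm or nmt prefix or the isotype Und or Sup. The rule found 52 of 631 rows: 24 nm rows, 17 nmt rows, 9 Und rows and 2 Sup rows. The files do not spell the prefixes out. RefSeq lists the matched nmt loci under NMTR symbols as pseudogenes. It matched none of the nm rows, for which the likeness to mitochondrial tRNAs rests on the name alone.

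The tables come from iCLIP, in which RNA is crosslinked to a protein by ultraviolet light in living cells and the protein is pulled down with the RNA it touched. The protein was PUS7, a pseudouridine synthase. In HEK 293T, a transformed human embryonic kidney line, there were 3 libraries from PUS7KO cells carrying FlagPUS7 and 3 from PUS7KO cells without it. In H9, a human embryonic stem cell line, there were 2 of each. All 10 libraries therefore share the PUS7 knockout, and all went through the same pull-down on anti-FLAG beads, so the knockout libraries are mock controls. Promoter and route of the FLAG-PUS7 transgene, and whether a knockout line was 1 clone, are not given.

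A tRNA carries an amino acid to the ribosome and reads a codon through its anticodon. Pseudouridine synthases turn uridine into pseudouridine in such RNAs, and PUS7 is known to act on cytosolic tRNAs and on mRNA. In yeast, its relative also modifies the anticodon of precursor tyrosine tRNA. Copies of mitochondrial DNA are scattered through the human nuclear genome and often keep the outline of the mitochondrial tRNA genes, so tRNA search programs report them as loci. A suppressor tRNA has an anticodon that pairs with a stop codon: the anticodon TTA pairs with the stop codon UAA, and CTA with UAG. An undetermined row, written Und with the anticodon NNN, is a predicted tRNA whose anticodon the search program could not read. No sequence of these loci was at hand, so none is printed.

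Read counts are not what the tables show: their values have the form left when text is replaced by its rank in alphabetical order, which keeps whether a row had no reads but not how many reads it had. A row is therefore called detected when its level lies above the lowest run of levels, and not detected otherwise. Depth per library is unknown, and no amount or fold change is given. Over all 631 rows, 458 to 479 were detected in each of the 5 FLAG-PUS7 libraries, and 0 to 232 in each of the 5 knockout libraries. The library with 0 is the first H9 knockout. Its table served to read the text width of each row, so its 0 follows from the way levels were read and may be an empty table. That library is among the 5 knockout libraries counted below and enters the permutation tests. A count of 0 of 5 thus includes a library in which no row could be called detected. The second H9 knockout library also detected 0 of the 52 rows, so the H9 knockout mean for them is 0 with or without the first.

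Of the 52 rows, 8 were detected in at least 1 library and 44 in none, against 513 of all 631 rows (81.3%) detected somewhere. In 293T the FLAG-PUS7 libraries detected 3, 4 and 5 of the 52 rows, against 0, 1 and 1 in the knockout libraries. In H9 it was 8 and 4 with FLAG-PUS7, against 0 and 0 in the knockout. Every FLAG-PUS7 library was thus above every knockout library of its line, by a few rows. The mean was 4 ± 1 rows with FLAG-PUS7 and 0.667 ± 0.577 rows in the knockout in 293T (SD, n = 3 each). In H9 it was 6 ± 2.83 rows with FLAG-PUS7 and 0 ± 0 rows in the knockout (SD, n = 2 each). Averaged over both lines the share of the 52 rows detected was 8.97 percentage points higher with FLAG-PUS7, beside 52.3 points for all 631 rows. The 52.3 points count the first H9 knockout library as 0%, whereas the second detected 36.8% of the 631 rows. In 293T alone the differences were 6.41 points for the 52 rows and 47.6 points for all 631. These are descriptions without a test, because the rows were chosen as a set. The first H9 FLAG-PUS7 library alone held all 8 rows, and without it the difference for the 52 rows over both lines was 7.05 points.

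**Figure D1:**
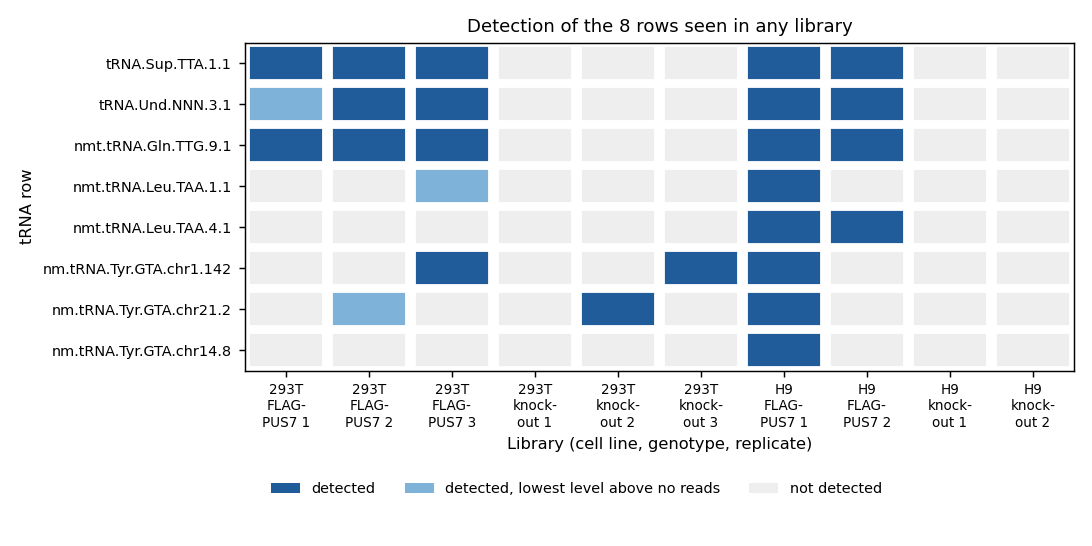
Detection of the 8 rows seen in any library, 1 row per line and 1 library per column, with FLAG-PUS7 left of knockout within each cell line. Dark cells are detected, pale blue cells are detected at the lowest level above no reads over all text widths, and grey cells are not detected. tRNA.Sup.TTA.1.1 and nmt.tRNA.Gln.TTG.9.1, of a wider text class, are drawn dark even at the lowest level of their class. Counting only levels above the second lowest of each class lowered the difference for nmt.tRNA.Gln.TTG.9.1 from 100 to 83.3 points. The top 3 rows are filled across the 5 FLAG-PUS7 columns and blank in the knockout columns, where only nm rows are filled.

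The Sup rows gave opposite pictures. tRNA.Sup.TTA.1.1, whose anticodon pairs with the stop codon UAA, was detected in 5 of 5 FLAG-PUS7 libraries and in 0 of 5 knockout libraries. Its level was shared with at most 1 other row in any FLAG-PUS7 library. Compared within its own text width class, it was never the lowest one above no reads: the difference stayed at 100 points when only levels above the second lowest counted. tRNA.Sup.CTA.2.1, whose anticodon pairs with UAG, was detected in none of the 10 libraries. RefSeq lists the CTA locus as the pseudogene TRSUP-CTA2-1 on chromosome 3 at 13792389 to 13792456 (GRCh38.p14), while the symbol of the TTA row had no match there.

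The difference for tRNA.Sup.TTA.1.1 was 100 percentage points, with or without the first H9 knockout library. Tested as a row, it reached the smallest p the design allows (exact two-sided permutation test over 120 assignments within lines, p = 0.0167) and did not pass after Benjamini-Hochberg adjustment over 513 rows (adjusted p = 0.0668). No row of the whole table passed that adjustment (0%), and 25% of the 513 tested rows had an unadjusted p under 0.05. Tested as a family of 1 row among 57 isotype and anticodon families, it rose (exact permutation test, adjusted p = 0.0221), as did 78.9% of families (45 of 57). That family test holds the same row with the same unadjusted p and is no separate support. Without the first or without the second H9 FLAG-PUS7 library 23 families rose, Sup-TTA among them. The identical pattern was shown by 125 rows outside the 52, and in all by 25% of the tested rows.

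Among the 9 Und rows, 1 was detected. tRNA.Und.NNN.3.1 was detected in 5 of 5 FLAG-PUS7 libraries and in 0 of 5 knockout libraries, and the other 8 Und rows in none of the 10. In the first 293T FLAG-PUS7 library its level was the lowest above no reads and was shared with 24 other rows. In the remaining FLAG-PUS7 libraries the level was a higher one, shared with 1 to 5 other rows. As a row it gave p = 0.0167 and adjusted p = 0.0668 (exact permutation test over 513 rows). By the exact permutation test over 57 families the Und family rose by 11.1 points (adjusted p = 0.0221), which is 1 of its 9 rows in every FLAG-PUS7 library. Where a level counted only above the second lowest one, the family differed by 9.26 points and no longer passed (exact permutation test, adjusted p = 0.0792).

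RefSeq lists 5 of the 9 Und loci, all as pseudogenes. The detected one, TRUND-NNN3-1 on chromosome 1 at 161420871 to 161420943 (GRCh38.p14), lies outside any other RefSeq gene with 27 tRNA genes within 100000 bases. The nearest is TRE-TTC4-2, a glutamate tRNA gene, 1150 bases away. The 4 other matched Und loci, none of them detected, lie within the protein-coding genes HAUS5, POP1, TNFRSF9 and ARSG, and had 0 tRNA genes within that distance. The 4 Und rows named by chromosome only (tRNA.Und.NNN.chr1.1, tRNA.Und.NNN.chr11.13, tRNA.Und.NNN.chr14.11 and tRNA.Und.NNN.chr5.4) could not be placed and were not detected.

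Of the 17 nmt rows, 3 were detected, each in FLAG-PUS7 libraries only. So were 212 of the 513 rows detected anywhere (41.3%), and in the narrowest class of text width, which holds most of the 52 rows, 123 of 131. The prefix covers 9 Gln-TTG rows, 3 Ser-TGA rows, 2 Leu-TAA rows and 1 row each of Gln-CTG, Pro-TGG and Val-TAC. The number of nmt rows detected was 1, 1 and 2 in the 293T FLAG-PUS7 libraries, against 0, 0 and 0 in the 293T knockout. It was 3 and 2 in the H9 FLAG-PUS7 libraries, against 0 and 0 in the H9 knockout. The groups did not overlap in either line, and neither did they over all 631 rows.

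nmt.tRNA.Gln.TTG.9.1 was the nmt row detected in 5 of 5 FLAG-PUS7 libraries and in 0 of 5 knockout libraries. As a row it gave p = 0.0167 and adjusted p = 0.0668 (exact permutation test over 513 rows). By the same test over 57 families the nmt Gln-TTG family rose by 11.1 points (adjusted p = 0.0221), again 1 of 9 rows, and differed by 9.26 points when only levels above the second lowest counted (adjusted p = 0.0792, exact permutation test). The 8 other nmt Gln-TTG rows were detected in no library. Sup-TTA, Und-NNN, nmt Gln-TTG and Ser-ACT were the 4 risen families in which a single row carried all of the detection. For these the family test repeats the test of that row, adjusted over 57 families in place of 513 rows.

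nmt.tRNA.Leu.TAA.4.1 was detected in 2 of 2 H9 FLAG-PUS7 libraries and in 0 of 3 in 293T. nmt.tRNA.Leu.TAA.1.1 was detected in the first H9 and the third 293T FLAG-PUS7 library, in 293T at the lowest level above no reads, shared with 20 other rows. Neither was in a knockout library. Their differences of 50 and 41.7 points had exact permutation p-values of 0.333 and 0.5 (adjusted p = 0.517 and 0.617 over 513 rows). The nmt Leu-TAA family had 0%, 0% and 50% of its 2 rows detected in the 293T FLAG-PUS7 libraries, against 0% in each 293T knockout library. In H9 it had 100% and 50% with FLAG-PUS7, against 0% in both knockout libraries. Over both lines the difference of 45.8 points missed the threshold in the exact permutation test (adjusted p = 0.186). Its difference in effect between lines, H9 minus 293T, was 58.3 points (exact permutation of line labels, p = 0.3, adjusted p = 1). None of the 57 families differed between lines after adjustment (0%), and 0 had an unadjusted p under 0.05.

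**Figure D2:**
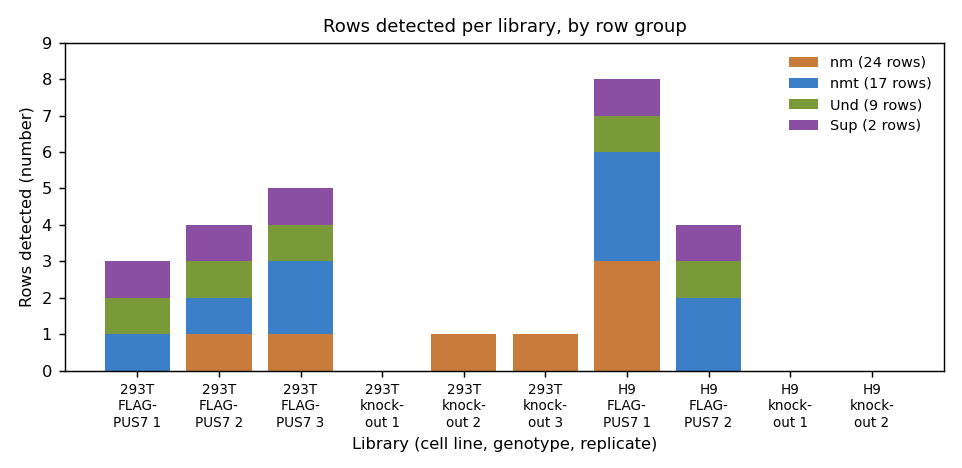
Number of rows detected per library (vertical axis, starting at 0), stacked by row group, with FLAG-PUS7 left of knockout within each line. The 293T FLAG-PUS7 libraries hold 3, 4 and 5 rows against 0, 1 and 1 in the knockout, and the H9 FLAG-PUS7 libraries 8 and 4 against 0 and 0.

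The nm rows did not follow FLAG-PUS7 in 293T. Of the 24 rows, 23 are named Tyr and 1 SerTGA, and all are named by chromosome and serial number rather than by gene copy. The number of nm rows detected was 0, 1 and 1 in the 293T FLAG-PUS7 libraries, against 0, 1 and 1 in the 293T knockout. It was 3 and 0 in the H9 FLAG-PUS7 libraries, against 0 and 0 in the H9 knockout. All detected nm rows were Tyr-GTA, the anticodon of the cytosolic and mitochondrial tyrosine tRNAs. None of the 4 Tyr-ATA rows, 2 Tyr-NNN rows, 1 Tyr-GCA row and 1 SerTGA-AGA row was detected in any library.

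nm.tRNA.Tyr.GTA.chr21.2 was detected in the second 293T FLAG-PUS7 library and in the first of H9, against the second 293T knockout library. nm.tRNA.Tyr.GTA.chr1.142 was detected in the third 293T FLAG-PUS7 library and in the first of H9, against the third 293T knockout library. In the knockout tables neither shared its level with another row. Both had a difference of 25 points at an exact permutation p of 0.8 (adjusted p = 0.982 over 513 rows). nm.tRNA.Tyr.GTA.chr14.8 was detected in the first H9 FLAG-PUS7 library alone, against no knockout library (25 points, exact permutation p = 1). The nm Tyr-GTA family, with 16 rows, differed by 4.69 points, short of the threshold in the exact permutation test (adjusted p = 0.814). That difference was 0 points when the first H9 FLAG-PUS7 library was left out.

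Of all 631 rows, 301 were detected in a knockout library (47.7%), and 297 of these were in all 5 FLAG-PUS7 libraries. The 4 exceptions were these 2 nm rows, each in 2 of 5 FLAG-PUS7 libraries, and tRNA.Lys.CTT.10.1 and tRNA.Trp.CCA.5.1, each in 4 of 5. The last 2 were named after their values were seen. Among the 50 of the 52 rows in the narrowest text class, 2 were in a knockout library (both nm), beside 6 of 198 other rows of that class. The 2 nm rows were in different knockout libraries.

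The text width of a row was read from the first H9 knockout table and is not independent of detection. All 44 undetected rows of the 52 lay in the narrowest class, as did 73 of the 74 other rows detected in no library. The shares by width class are therefore a description and no separate support. Of the 52, 50 lay in the narrowest of the main width classes (96.2%), against 198 of 579 other rows (34.2%). The 2 exceptions, tRNA.Sup.TTA.1.1 and nmt.tRNA.Gln.TTG.9.1, lay in the next class. Every FLAG-PUS7 library held both, and 124 of 128 other rows of that class likewise. Within the narrowest class, FLAG-PUS7 libraries detected 2% to 12% of the 50 rows and 37.4% to 48.99% of the 198 other rows. Knockout libraries detected 0% to 2% of the 50 rows and 0% to 1.52% of the 198, or 0.505% to 1.52% of the 198 without the first H9 library.

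RefSeq lists all 18 rows that it could place as pseudogenes, so other pseudogene rows are the closer comparison. Each FLAG-PUS7 library detected 2 of the 18 (11.1%), against 0 in each knockout library. Of the 37 other rows matched to a RefSeq pseudogene, FLAG-PUS7 libraries detected 8 to 10 (21.6% to 27.0%) and knockout libraries 0 to 1. The 408 other rows matched to a RefSeq tRNA gene were detected at 97.1% to 97.8% with FLAG-PUS7, and at 0% to 54.2% in the knockout. Without the first H9 knockout library, whose 0 follows from the way levels were read, the knockout range was 30.4% to 54.2%. These shares were not tested against each other.

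**Figure D3:**
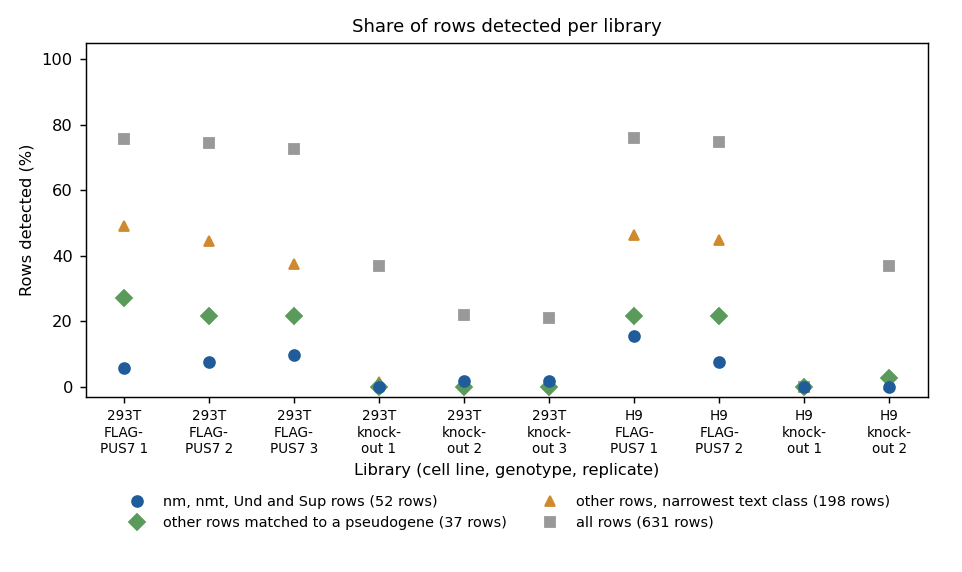
Share of rows detected per library in percent (vertical axis), with FLAG-PUS7 left of knockout within each line, for the 52 nm, nmt, Und and Sup rows, for other rows matched to a RefSeq pseudogene, for other rows of the narrowest text class, and for all rows. With FLAG-PUS7 the 52 rows lie between 5.77% and 15.4%, below the other sets in each of these libraries, and in knockout libraries between 0% and 1.92%.

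Rows with an nm or nmt prefix can be set beside rows of the same isotype and anticodon without one, as a description that was not tested and that depends on the measure. For Tyr-GTA, 0 of 16 nm rows were in all 5 FLAG-PUS7 libraries, beside 12 of 16 rows without a prefix. For Gln-TTG it was 1 of 9 nmt rows and 5 of 8 rows without a prefix, for Leu-TAA 0 of 2 and 4 of 6, for Ser-TGA 0 of 3 and 4 of 4, for Gln-CTG 0 of 1 and 12 of 24, and for Tyr-ATA 0 of 4 and 0 of 1. The single nmt rows of Pro-TGG and Val-TAC were not detected, while 7 of 7 and 5 of 7 rows without a prefix were in all 5. Counted by detection in any library, Leu-TAA gave 2 of 2 nmt rows and 5 of 6 rows without a prefix, and Tyr-GTA 3 of 16 nm rows and 12 of 16 without. Text width moved with the prefix and is itself not independent of detection. Its part in these shares was not tested. In the narrowest class, 0 of 4 Tyr-GTA rows, 0 of 3 Gln-TTG rows and 0 of 2 Leu-TAA rows without a prefix were in all 5 FLAG-PUS7 libraries. Detection in any library within that class was 3 of 16 nm and 0 of 4 other rows for Tyr-GTA, and 2 of 2 nmt and 1 of 2 other rows for Leu-TAA. It went the other way for Gln-TTG, with 0 of 8 nmt and 1 of 3 other rows. Likewise, Gln-CTG had 0 of 1 nmt and 7 of 13 other rows, and Val-TAC 0 of 1 nmt and 1 of 2. For Tyr-ATA it was 0 of 4 nm rows and 1 of 1 other row. In knockout libraries, 46 of the 84 rows without a prefix that share an isotype and anticodon with an nm or nmt row were seen at least once (54.8%), beside 47.7% of all rows. Counting nm and nmt rows in the family of their isotype and anticodon gave a rise for Tyr-GTA, by 35.7 points, and for Leu-TAA, by 42.7 points (both at an adjusted p of 0.0209, exact permutation test). The rows without a prefix, taken alone, rose by 66.7 and 41.7 points (both at an adjusted p of 0.0221, exact permutation test). Rows of one isotype can share short reads where their sequences are alike, and the authors' way of assigning such reads is not given, so the detection of any single copy is uncertain.

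**Figure D4:**
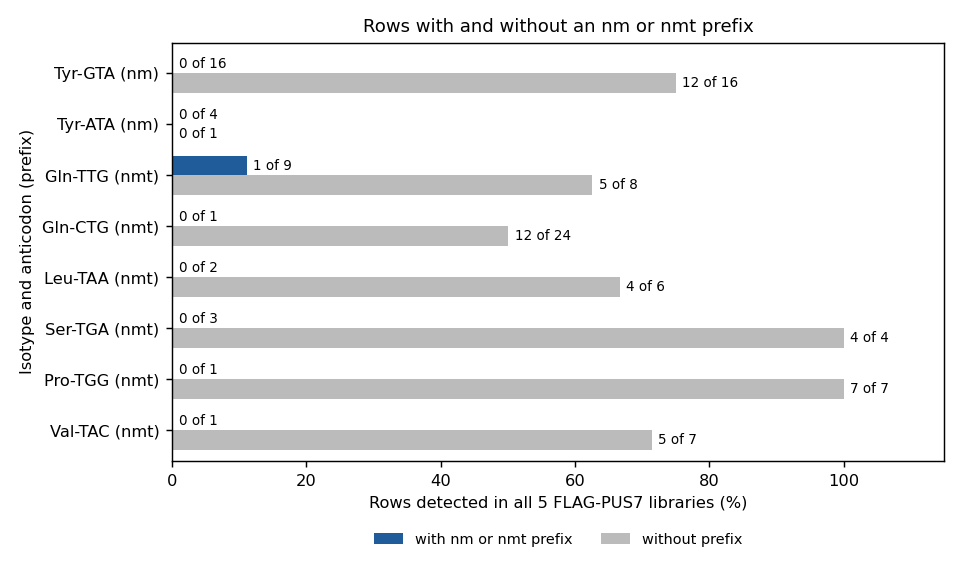
Share of rows detected in all 5 FLAG-PUS7 libraries in percent (horizontal axis, starting at 0), by isotype and anticodon, with prefixed rows above rows without a prefix and the number of rows beside each bar. Gln-TTG has 1 of 9 nmt rows beside 5 of 8 rows without a prefix, and all other prefixed bars are 0.

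Most placed nmt loci lie beside other nuclear copies of mitochondrial genes. Of the 12 nmt loci placed by RefSeq, 9 have a pseudogene of a mitochondrial protein gene as nearest gene, 1 to 70 bases away. For 6 of 8 Gln loci this is a pseudogene of ND1 or ND2, the subunits of respiratory complex I whose genes lie to either side of the glutamine tRNA gene in mitochondrial DNA. For both Ser loci it is a pseudogene of CO1, a cytochrome oxidase subunit. In the mitochondrial genome itself RefSeq places the glutamine tRNA gene 67 bases after ND1 and a serine tRNA gene 1 base after CO1. The Pro-TGG locus, NMTRP-TGG1-1, lies 69 bases from an ND1 pseudogene, MTND1P25.

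The one nmt row detected in every FLAG-PUS7 library, NMTRQ-TTG9-1 in RefSeq, lies on chromosome 2 at 131385560 to 131385631 (GRCh38.p14), 69 bases from the ND1 pseudogene MTND1P26. At 2922 bases from it lies NMTRS-TGA2-1, the locus of nmt.tRNA.Ser.TGA.2.1, at 131382569 to 131382638. That neighbour was detected in none of the 10 libraries. NMTRQ-TTG7-1 on the same chromosome, at 130272338 to 130272409, lies 69 bases from another ND1 pseudogene, MTND1P29, and was detected in none either.

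The authors' peak lists, deposited for the 5 FLAG-PUS7 libraries, gave a second readout on hg38 coordinates in bins of 200 bases. None of the 18 placed loci overlapped a peak on either strand in any list (0 of 18), beside 119 of 443 RefSeq tRNA genes (26.9%) overlapped in at least 1 list. All 18 are listed as pseudogenes, and no such share was counted for other pseudogene loci, the closer comparison. Per list, 0 of the 18 loci had a peak, against 50, 41 and 18 of 443 tRNA genes in 293T and 114 and 55 in H9. The nearest peak to TRUND-NNN3-1 was in the first H9 list, 1058 bases away at 161422001 to 161422200, with the authors' signal of 4. The nearest to NMTRQ-TTG9-1 was 868970 bases away. Both loci belong to rows detected in all 5 FLAG-PUS7 tRNA tables. The lists are named as free of tRNA although they overlap tRNA genes, and what was removed from them is not given, so a locus without a peak may still have had reads.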

How the data were processed

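The deposited tRNA tables hold 1 value per row and library, which the values show to be level codes. Such a score, as the authors deposited it, is neither a count nor normalized: every whole number from 1 to the maximum occurs in each of the 10 tables. The submitters' processing notes list Bowtie, SAMtools, bedtools and hg38, with no role for any. Levels in the lowest run, 1 per text width class, were read as no reads. The reading was tried on simulated data written in the assumed form, with the first H9 knockout library empty. That trial cannot show whether the deposited tables have this form. Peak lists hold a signal and a p-value per peak, as the authors deposited them, with the caller not given in the sources used here. Detection was compared by exact two-sided permutation of the FLAG-PUS7 label within lines, lines weighted equally, with Benjamini-Hochberg adjustment over 513 rows or 57 families (threshold 0.05) in Python 3.11.15 with numpy 2.4.6 and pandas 2.3.3. The smallest p is 0.1 within 293T and 0.333 within H9, so neither line can pass alone. Rows detected in no library were not tested. All detected rows of the set are named. RefSeq symbols of GRCh38.p14 matched 18 of the 52 rows. The labels do not say that replicates were grown apart, so a p-value covers the spread between these libraries, which may be technical. The members and lists were chosen with earlier results of these data known.

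Alternatives were the level that counts as detected, the library weights, the inclusion of undetected rows, the family definition, the replicate block and leaving out each library.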

Additional observations from a re-analysis of the deposited data

How the results depend on the processing

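Leaving out each library in turn gave a difference for the 52 rows of 7.05 to 10.9 points, 23 to 49 risen families of 57, 0 rows past the adjusted threshold and 0 families that differed between lines. The count of 45 risen families was 23 without the first and 23 without the second H9 FLAG-PUS7 library, and Sup-TTA, Und-NNN and nmt Gln-TTG passed in every one of these fits (exact permutation test, adjusted p from 0.0211 to 0.0413). In 293T the deviations of same-numbered libraries from their group means had correlations of -0.0245, 0.0369 and -0.00626. These values were bound to be small, because 297 of the 301 rows detected in a knockout library were in all FLAG-PUS7 libraries. Such rows do not vary among the FLAG-PUS7 libraries, so the correlations cannot show whether pairs exist in 293T. The main tests did not take the numbers as pairs. In H9 the deviations from a group mean mirror each other. Its correlations, 0.0341 for same numbers and -0.0341 for different ones, are thus a single value that cannot show whether pairs exist. With the replicate block 0 of 57 families passed, because its 32 assignments allow no p under 0.0625 (exact permutation test, adjusted p of 0.0810 for Sup-TTA, Und-NNN and nmt Gln-TTG). Counting only levels above the second lowest one of a text width class left Sup-TTA as the single risen family among those of the 52 rows. The other alternatives changed no call of these families apart from the merged ones given above. The number of loci at peaks was 0 also for peaks that cover the whole locus and for peaks with the authors' p of at most 0.01. Unknown depth limits every absence: a row that was not detected may have gone unread in a shallow library.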

Other observations

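The mitochondrial genome itself carried peaks in 4 of the 5 FLAG-PUS7 lists: 4, 2 and 0 peaks in 293T and 13 and 7 in H9. These peaks overlapped 3, 1 and 0 of its 22 tRNA genes in 293T and 18 and 6 in H9. Summed over both strands they were 1600, 400 and 0 bases long in 293T and 15000 and 4000 in H9. An overlap with so wide a peak does not place it at the tRNA gene in particular. The valine tRNA gene TRNV, which lies between the ribosomal RNA genes, was overlapped in the first and second 293T lists and in both H9 lists. The peaks there were 800 and 200 bases long in 293T and 2800 and 2600 bases long in H9. The glutamate tRNA gene TRNE lay at a peak on the minus strand at 14601 to 14800 in the first 293T list (signal 16) and in the second H9 list (signal 21), and within a wider one in the first H9 list (signal 31). The tyrosine tRNA gene TRNY, the mitochondrial counterpart of most nm rows by name, was overlapped in the first H9 list alone, within a plus-strand peak of 7000 bases that covers 10 tRNA genes. Overlap was counted without regard to strand. The glutamine tRNA gene TRNQ was overlapped in none. Lists differ in length and signals are not scaled for depth, so no comparison between libraries is made. These peaks were looked at after the data were seen.

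In 293T the nm rows seen in FLAG-PUS7 and in knockout libraries matched by replicate number. The second libraries of both genotypes held nm.tRNA.Tyr.GTA.chr21.2 and the third libraries of both held nm.tRNA.Tyr.GTA.chr1.142, while the first libraries held no nm row. The numbers are not known to mark a shared batch, and 2 rows are too few for a test. The cause was not tested.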
